A study of Mus musculus with 6 samples.

Results

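RNA G-quadruplexes (rG4s) in 5′ untranslated regions (5′UTRs) were examined in mouse embryonic stem cells during embryoid body differentiation. The members are the 639 of 5538 deposited sites whose transcript region is given as exactly 5UTR, whatever their structural class. A further 121 sites carry 5UTR beside a second region label and were not counted. The 639 sites lie in 446 gene entries, of which 311 hold 1 site and 12 hold 4 or more. Motifs of 251 sites overlap that of another member, and joining them leaves 499 loci, so members are not independent of each other. Stops were measured on day 0, day 3 and day 7 of differentiation with 2 samples per day, and each sample was reverse transcribed once with K+ and once with Li+. A second pair of tables belongs to the day 7 samples and is named in vitro. Only the table name and the series' design text identify them as such. All groups come from 1 clonal TsixTST/+ line of a 129S1/CastEiJ by 129S1 cross, with WT as genotype label and no drug treatment. Cells were freed of feeders, LIF was withdrawn, and embryoid bodies were attached to gelatin from day 3. Cells were treated with dimethyl sulfate (DMS), and chromatin-bound polyadenylated RNA was used, so the sites report on transcripts held at chromatin and not on cytoplasmic mRNA. Whether replicates were separate cultures is not stated, and the p-values below cover the spread among these samples, which may be technical.

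A G-quadruplex forms when runs of guanines stack into planar tetrads around a cation, and K+ stabilises it whereas Li+ does not. A folded motif stops reverse transcriptase at its 3′ edge, so the share of reads that end there is the readout. DMS methylates guanines that are not protected by folding, which keeps a motif unfolded in the cell from refolding during reverse transcription. In 5′UTRs, rG4s are best known for slowing the scanning ribosome, and helicases such as Dhx36 unwind them.

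The motifs that carry the results are printed 5′ to 3′ on the transcript strand with DNA letters, as deposited, and runs of 2 or more guanines are in capitals. The first set holds 5 of the sites called lower in cells than in the in vitro tables.
Huwe1: GGGttGGGacGGGctGGGc
Canx: GGGGccGGGtgtgcGGGtGGGa
Gadd45a: GGagcGGagaaGGGaGGGtGGGagc
Anp32e: GGGttGGGGatagtGGGGaGGGc
Mdk, last 30 bases of the motif: ttagcGGGacaGGccGGagcGGGaGGGagc
Huwe1, Canx and Anp32e each hold 4 runs of 3 or more guanines, while Gadd45a and the printed stretch of Mdk hold 3, and both are classed as bulged. The second set shows 3 overlapping motifs of Gnai2, which share guanine runs but end at different bases.
Gnai2, chr9:107635270-107635294: GGGagcGGagtGGGtcGGGcGGGGc
Gnai2, chr9:107635276-107635305: GGGccGGcGGtGGGagcGGagtGGGtcGGG
Gnai2, chr9:107635280-107635305: GGGccGGcGGtGGGagcGGagtGGGt
The third set pairs the neighbouring Arpc2 motifs, 1 with runs of up to 5 guanines and 1 built from GG repeats, with the motif of highest in vitro stop share (Cbfb) and the motifs of Mybl2, which lost reads, and Pkdcc, which gained them.
Arpc2, chr1:74236523-74236544: GGGGGctGGGcGGGGaccGGGa
Arpc2, chr1:74236556-74236579: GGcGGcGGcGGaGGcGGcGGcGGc
Cbfb: GGGcGGGcGGGaGGGa
Mybl2: GGGcgtaaGGGtgcGGcGGGGtccGGGc
Pkdcc: GGGccatgcgcgcGGGctGGGcaGGGGGc
Huwe1 lies on chromosome X from 151803426 to 151803444, Canx on chromosome 11 from 50325533 to 50325554, Mdk on chromosome 2 from 91931715 to 91931750, and Mybl2 on chromosome 2 from 163054794 to 163054821. Coordinates are 1-based on GRCm38.p6, and all of these sites are annotated as 5′UTR.

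The members were richer in cytosine than sites elsewhere. By class, 317 (49.6%) were bulged, 105 (16.4%) canonical with 3-guanine runs and short loops, 93 (14.6%) long-looped and 79 (12.4%) 2-quartet motifs. Canonical motifs made up 5.29% of the 1342 sites in coding sequence and 21.6% of the 2775 sites in 3′UTRs. The median share of C in the motif was 17.1% in 5′UTR sites, 10.7% in coding sequence and 7.69% in 3′UTR sites, and that of G was 63.2%, 58.1% and 60.0%. The repeat GGCGGC, searched on the transcript strand only, occurred in 144 members (22.5%), in 8.72% of motifs in coding sequence and in 0.649% of 3′UTR motifs. GGAGGA, whose matches can overlap those of the first repeat within a motif, occurred in 16.1% of members, 36.9% of motifs in coding sequence and 8.07% of 3′UTR motifs. These are counts over the listed motifs and were not tested.

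Reads over the members were few in cells. The median member held 155 reads summed over the 12 in-cell libraries, against 277 for sites in coding sequence and 423 for 3′UTR sites. In K+ libraries the members' summed coverage was 22012 and 6456 reads for day 0, 5918 and 7592 for day 3, 42666 and 24211 for day 7, and 78240 and 116961 in vitro. In Li+ libraries the sums were 20634 and 6511 for day 0, 25756 and 4638 for day 3, 81810 and 20576 for day 7, and 46439 and 25827 in vitro. No coverage value from 1 to 5 reads occurs in the deposited tables, and a listed 0 is therefore read as 5 reads or fewer. Members at 0 in both cations numbered 179 and 435 in the day 0 samples, 200 and 374 in the day 3 samples and 3 and 88 in the day 7 samples, and 78 members were listed above 0 in every in-cell library. Fewer molecules per cell and fewer cells that express a gene cannot be told apart in these bulk samples. As a check of the labels, the 3 stem cell marker genes with a site (Lin28a, Pou5f1 and Tdgf1, of 8 listed) summed to coverages of 1687 and 1454 CPM (counts scaled to the normalised library size) for day 0, 1557 and 1604 CPM for day 3, and 699 and 802 CPM for day 7. The 6 markers of differentiated cells with a site, of 8 listed, summed to 11.0 and 0.00, 15.3 and 37.1, and 644 and 673 CPM at the same times. Of 6 fibroblast markers only Col1a1 had a site, at 0 on days 0 and 3 and at 18.6 and 27.6 CPM on day 7, and its part in the results was not tested.

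A pair of sites on chromosome X stood apart from all other members. Pnck, a calmodulin-dependent kinase gene, and the site listed for both Cmc4 and Mtcp1, held 24.3% of all in-cell reads over members and 76.4% of the stops. Pnck stopped at 24.4% and 42.1% of reads in K+ on day 7, against 25.3% and 33.5% in Li+. The Cmc4 and Mtcp1 site stopped at 54.6% and 50.8% in K+, against 48.9% and 46.7% in Li+. In vitro the K+ shares were 53.6% and 42.1% for Pnck, with 35.4% and 31.8% in Li+, and 53.6% and 46.8% for Cmc4 and Mtcp1, with 41.1% and 36.1% in Li+. In cells both sites thus stopped reverse transcriptase in Li+ about as often as in K+, and stop sums over members are not used below.

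In vitro, stops at the members depended on K+. In both in vitro tables the K+ share exceeded the Li+ share at each of the 639 members, but also at each of the 5538 sites, so the difference itself is only a description of the list. At members with 20 or more reads in both cations the median stop share was 44.5% and 42.9% in K+, against 4.99% and 4.76% in Li+ (472 and 331 sites). The median K+ minus Li+ log2 odds were 3.64 and 3.74, where odds are stops over reads that pass. Over the 579 members with 20 or more K+ reads in both tables, the mean K+ share ran from 12.4% to 96.9%, with a median of 49.0%, and 35 members reached 80% or more. By class, again at members with 20 or more reads in both cations, canonical motifs had median K+ shares of 50.0% and 53.4%. Bulged motifs had 44.0% and 42.4%, and 2-quartet motifs 36.1% and 38.9%. With the same minimum in both cations, the share ran from 19.3% to 93.7% within canonical motifs in replicate 1, and from 10.9% to 90.3% within 2-quartet motifs. K+ shares of the 2 in vitro tables correlated across 267 members with a Spearman coefficient of 0.86, over sites that differ in depth and in part overlap.

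The members with the highest in vitro shares differed in how often they stopped in Li+. Cbfb, a subunit of the core binding factor, had K+ shares of 97.1% and 96.6%, but its Li+ shares were also high, at 66.7% and 66.7% of 12 reads each. Stk11, the kinase upstream of AMPK, had 91.2% and 96.6% in K+, against 66.0% and 26.8% in Li+. Hnrnpr, an RNA-binding protein, had 85.7% and 95.2% in K+ with no stop among 22 and 7 reads in Li+. Anapc13, a subunit of the anaphase-promoting complex, had 91.8% and 95.0% in K+, against 24.3% and 9.52% in Li+. The rest of the 8 highest were Zfp57, BC005537, Copg1 and Alkbh5. Zfp57 had 96.5% and 92.5% in K+, against 20.0% and 0.00% in Li+, and BC005537 93.7% and 95.3%, against 10.3% and 0.00%. Copg1 had 90.8% and 91.7%, against 27.0% and 7.14%, and Alkbh5 90.3% and 92.1%, against 13.6% and 14.3%. Several of these Li+ shares rest on few reads.

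Among genes with a described 5′UTR rG4, 5 had members here. The 3 Gnai2 motifs, in the leader of an inhibitory G protein subunit, had in vitro K+ shares that differed several-fold although the motifs overlap. The motif that ends farthest 3′ stopped at 67.0% and 72.7%, the middle 1 at 25.0% and 33.5%, and the motif that ends farthest 5′ at 13.1% and 22.9%. Arpc2, a subunit of the actin-nucleating Arp2/3 complex, stopped at 89.0% and 91.2% in its motif with long guanine runs and at 43.1% and 32.1% in its GG repeat. Bag1, a cochaperone of Hsp70, had 67.6% and 68.1%. The 2 motifs of Ccnd3, the D-type cyclin, had 53.8% and 51.0%, and 50.9% and 45.9%. The 4 motifs of Fzd2, a Wnt receptor, ran from 30.6% to 81.0%.

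**Figure D1:**
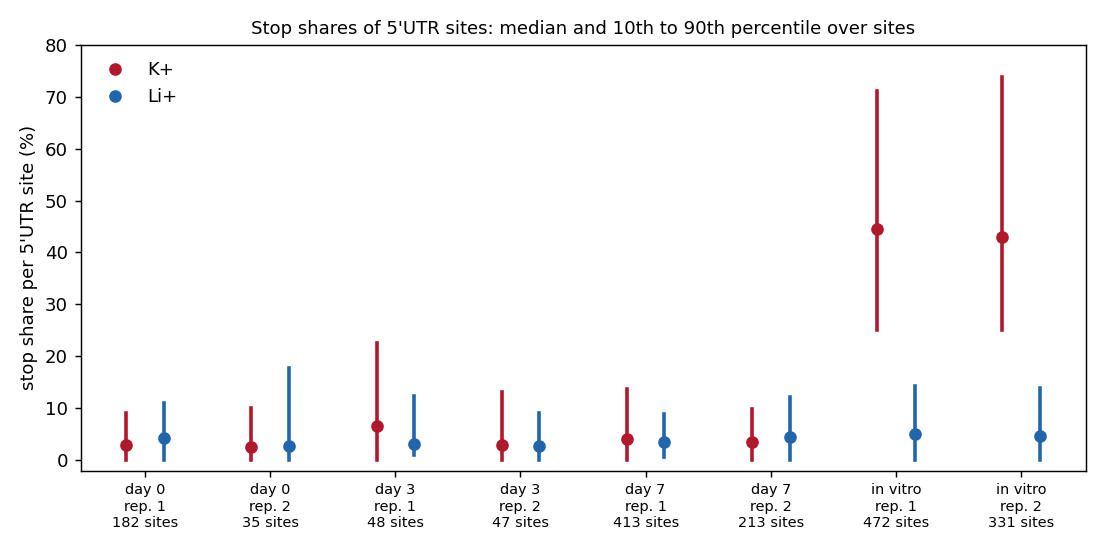
Stop share in percent (y axis) of 5′UTR sites with 20 or more reads in both cations, in each sample (x axis). Points are medians over sites and lines run from the 10th to the 90th percentile, red for K+ and blue for Li+. The K+ medians are 44.5% and 42.9% in vitro and between 2.50% and 6.56% in cells.

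In cells, no excess of K+ over Li+ stops was detectable at any member at the depth reached. In the fit of all 12 in-cell libraries, which needs 20 reads in each, 20 members were tested among 847 sites and none was called on day 0, day 3 or day 7 (limma on weighted log2 odds, Benjamini-Hochberg adjusted p under 0.05). At an unadjusted p under 0.05 there were 0 members for day 0, 1 for day 3 and 1 for day 7, and no call was made among the 847 sites. Day 7 minus day 0 odds gave no call either, with 1 member at an unadjusted p under 0.05. Fitting day 7 alone tested 209 members among 3045 sites, also with no call and with 8 members at an unadjusted p under 0.05. For day 0 the median K+ stop share was 2.99% and 2.50%, with Li+ medians of 4.29% and 2.78%. For day 3 the K+ medians were 6.56% and 2.91%, with 3.08% and 2.70% in Li+. For day 7 they were 4.17% and 3.52%, with 3.45% and 4.40% in Li+, so the day 7 replicates differed in direction. With 2 samples per day, the lack of a call does not show that the odds were equal.

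Nucks1, a chromatin-associated phosphoprotein, had the smallest p on day 7. In the day 7 samples it stopped at 11.1% and 13.9% of K+ reads, with Li+ shares of 4.30% and 5.58%, a log2 odds difference of 1.44 ± 0.62 (SE; limma adjusted p = 0.998). Both K+ libraries lay above both Li+ libraries. On day 3 the difference was 2.15 ± 0.78 (limma adjusted p = 0.330), and between day 7 and day 0 it was 2.41 ± 1.02 (limma adjusted p = 0.749). Smg5, a nonsense-mediated decay factor, had 2 stops among 78 reads and 3 among 120 in K+ on day 7, against 1 among 142 and 0 among 88 in Li+, a difference of 1.96 ± 1.16 that rests on these few stops.

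Both K+ shares exceeded both Li+ shares on day 7 at 40 of the 209 members with 20 reads in all 4 libraries (19.1%), and the same held for 20.5% of all 3045 sites. The members' share with K+ above Li+ was therefore near the background. At 30 members (14.4%) both K+ shares lay below both Li+ shares, against 10.7% of all sites. Examples chosen after their values were seen are Rnps1, a splicing activator, with 23.7% and 14.3% in K+ against 2.74% and 6.06% in Li+, and Arl3, a small GTPase, with 18.8% and 12.8% in K+ against 5.59% and 0.00% in Li+. Set, an inhibitor of protein phosphatase 2A, had 7.87% and 8.89% in K+ against 1.79% and 0.00% in Li+.

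The K+ against Li+ odds of 5′UTR sites lay within 0.10 of those of coding sequence in each sample, while 3′UTR sites differed more. In the day 0 samples the median difference over members was -0.49 and -0.18, with -0.39 and -0.17 for coding sequence and -0.22 and -0.70 for 3′UTR sites. In the day 3 samples it was 1.17 and -0.15 for members, 1.09 and -0.08 for coding sequence and 1.45 and 0.53 for 3′UTR sites. In the day 7 samples it was 0.48 and -0.42 for members, 0.43 and -0.36 for coding sequence and 0.69 and -0.15 for 3′UTR sites. Members lay below 3′UTR sites in 5 of 6 samples (mean difference -0.20, exact sign-flip permutation test over 6 samples, two-sided, p = 0.281). Against sites in coding sequence the mean difference was -0.02 (exact p = 0.562). The smallest p that 6 samples allow is 0.0312. The exception was day 0 replicate 2, with a difference of 0.52. The Li+ stop share of members was higher than that of 3′UTR sites by a mean of 0.56 percentage points (exact p = 0.125), with day 0 replicate 2 again the exception.

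**Figure D2:**
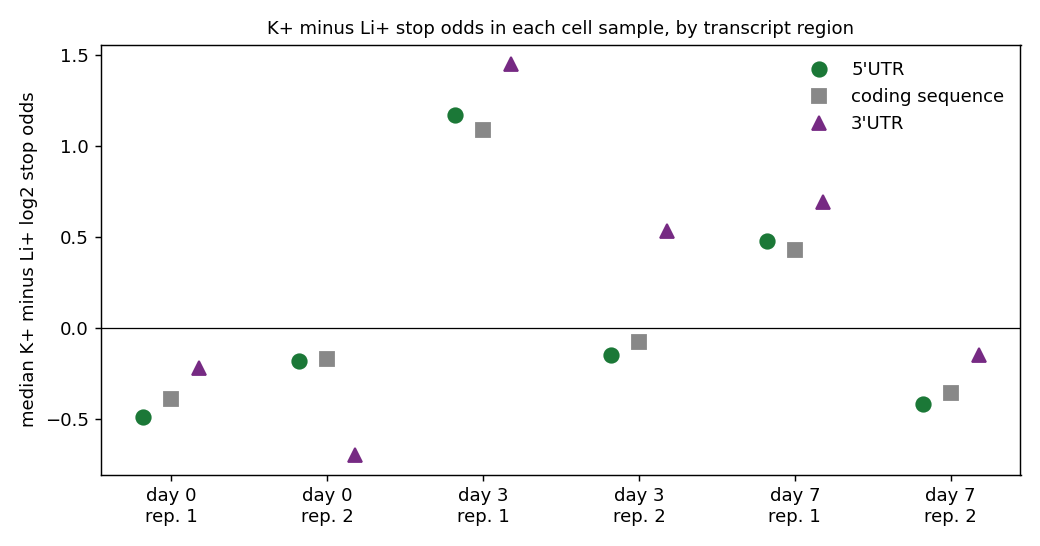
Median K+ minus Li+ log2 stop odds (y axis) in each in-cell sample (x axis) for 5′UTR sites (circles), sites in coding sequence (squares) and 3′UTR sites (triangles). The medians run from -0.70 to 1.45, and those of 5′UTR sites and coding sequence lie within 0.10 of each other in every sample.

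Day 7 cells and the in vitro tables differed at most members that could be tested. The K+ over Li+ odds were called lower in day 7 cells at 145 of 193 members tested (75.1%) and higher at none (limma on weighted log2 odds, 8 libraries). Of all 2648 sites 74.8% were called lower, so the members' share was near the background. The fit had no term for the sample. It took the K+ and Li+ libraries of a sample as independent, although each origin had only 2 samples. A fit with such a term was not run for this comparison. The median difference was -3.63 over members and -3.37 over all sites. Since every listed site has K+ above Li+ in vitro, a difference in this direction is in part built into the list.

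Mdk, a heparin-binding growth factor, stopped at 7.25% and 7.14% of K+ reads in day 7 cells, against 82.9% and 85.2% in vitro, with 5.15% and 10.9% in Li+ in cells and 8.23% and 5.29% in vitro (difference -6.08 ± 0.64, SE, limma adjusted p = 1.26e-05). Huwe1, a large ubiquitin ligase, stopped at 4.44% and 5.45% in K+ in cells, against 86.3% and 85.3% in vitro (difference -8.23 ± 1.08, limma adjusted p = 5.85e-05). Its Li+ shares were 8.11% and 12.2% in cells. In vitro it had 2 stops among 59 Li+ reads and 0 among 20, so the size of its difference rests in part on few Li+ stops. Canx, an endoplasmic reticulum chaperone, stopped at 9.79% and 5.77% in cells, against 87.5% and 92.4% in vitro. Its Li+ shares were 3.73% and 6.06% in cells, and 11.7% and 6.57% in vitro. In these 3 genes the K+ shares in cells were within the range spanned by the Li+ shares of cells and in vitro libraries. They did not overlap the K+ shares in vitro. Against the Li+ shares in cells alone, the K+ shares in cells were within the range for Mdk and below it for Huwe1. For Canx, 5.77% was within that range and 9.79% above it. Anp32e, a chaperone of histone H2A.Z, and Gadd45a, a stress sensor, differed by -5.57 and -5.60, Kansl2, of a histone acetyltransferase complex, by -5.70, and Arhgdia by -4.88. The short GG repeat of 15 bases shared by Gm49909 and Myl12a, a myosin regulatory light chain gene, stopped at 4.81% and 2.82% in cells, against 61.2% and 57.5% in vitro. The remaining named sites were Kpnb1, a nuclear import receptor, Paip2, which binds poly(A)-binding protein, Tmpo, of the nuclear lamina, and Phf23, with differences from -4.61 to -3.56.

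Some members with a higher stop share in cells were not called, but others were, such as Gadd45a with 8.96% and 17.4% in K+ on day 7. Nucks1 had 32.7% and 31.1% in K+ in vitro and 12.8% and 10.2% in Li+ there, beside the 11.1% and 13.9% in K+ on day 7 given above. Arl3 had 18.8% and 12.8% in K+ in cells, against 35.2% and 33.9% in vitro. Of the described rG4 genes, all 3 Gnai2 motifs were called lower in cells (-4.12, -2.59 and -4.92), as was the longer Ccnd3 motif (-3.93 ± 1.15), whose call was lost without day 7 replicate 1. The call of the middle Gnai2 motif was lost when either day 7 replicate was left out (limma adjusted p up to 0.0765). K+ shares of day 7 replicate 1 and in vitro replicate 1 correlated across the same 267 members with a Spearman coefficient of 0.31, and those of replicate 2 with a coefficient of 0.21, while the 2 day 7 replicates gave 0.44. The values are descriptions over sites that share libraries.

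**Figure D3:**
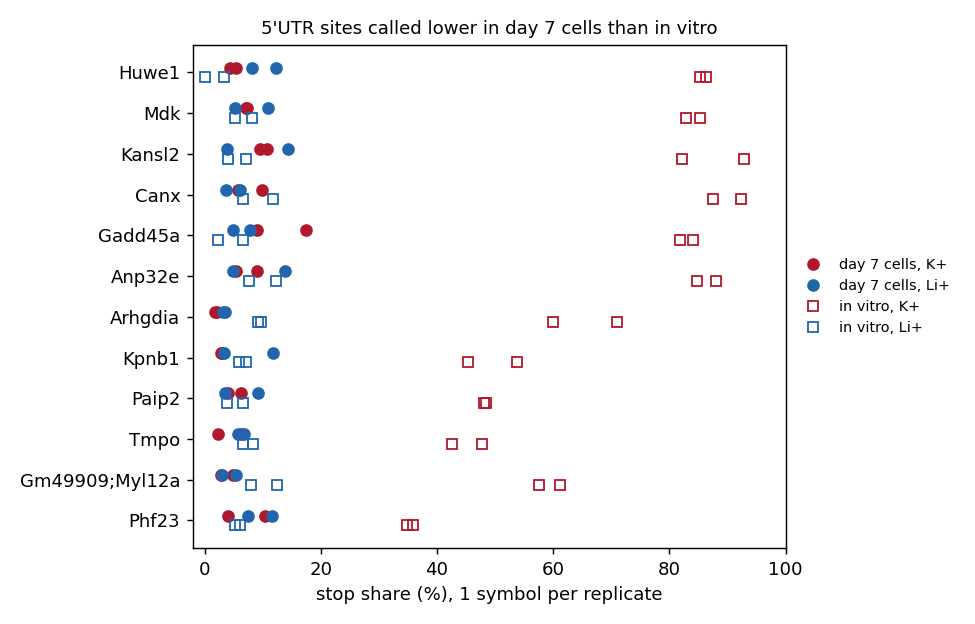
Stop share in percent (x axis) of the 12 named members called lower in day 7 cells than in vitro (y axis), with 1 symbol per replicate. Filled circles are day 7 cells, open squares in vitro, red K+ and blue Li+. K+ shares in cells are at most 17.4%, whereas those in vitro are at least 34.9%.

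K+ stop counts could be compared between days at 11 members only, among 327 sites (limma-voom). On day 7 against day 0, 2 members fell and none rose, while 6.12% of all sites fell and 10.1% rose. With libraries scaled by total counts alone, which moves the median over all sites to 1.26 from 0.16, 4 other members were higher and none was lower, and Mybl2 and Pnck kept their direction without a call (-1.83 and -1.25, limma-voom adjusted p = 0.120 and 0.0557). Mybl2, a cell cycle transcription factor, had 2 and 2 stops on day 7, against 12 and 2 on day 0, or 7.71 ± 5.18 stop CPM against 55.6 ± 21.9 (SD, n = 2 each), and fell by 2.93 ± 0.73 on the log2 scale (SE, limma-voom adjusted p = 0.0250). Pnck had 972 and 1011 stops on day 7, against 2143 and 1133 on day 0, and fell by 2.33 ± 0.63 once scaled to library size (limma-voom adjusted p = 0.0291). The fall at Pnck was not particular to K+. Its K+ stop share was 55.3% and 63.3% on day 0, and 24.4% and 42.1% on day 7. In Li+ it was 56.1% and 73.1%, and 25.3% and 33.5%. Pnck coverage was 1224 and 1707 CPM on day 7, against 2162 and 2733 on day 0, without a call. Mybl2 alone fell on day 7 against day 3, by 3.62 ± 0.70 (limma-voom adjusted p = 0.0141), when 0.917% of all sites fell. Reads over the Mybl2 motif were fewer too. Its coverage in both cations was 3.52 and 19.1 CPM on day 7, against 79.4 and 74.2 on day 0. On day 3 against day 0 no member was called, 1 having an unadjusted p under 0.05. Against day 0, no member fell when day 0 replicate 1, day 0 replicate 2 or day 7 replicate 1 was left out. Mybl2 itself could be tested in 1 of the 6 refits that leave out a sample, that without day 0 replicate 2, where it kept its direction but not its call (-2.82 against day 0, limma-voom adjusted p = 0.0998, and -3.15 against day 3, adjusted p = 0.0630). In the other 5 it did not pass the filter on low counts.

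Coverage, the reads of both cations over a motif, differed between days at more members, but most of the rises depend on how a listed 0 is read. On day 7 against day 0, 114 of 512 members tested were higher (22.3%) and 7 lower, against 16.1% and 4.21% of 4990 sites (limma-voom), and the median log2 difference was 2.53 over members and 0.51 over all sites. Of the 114, 67 were listed at 0 in all 4 day 0 libraries. With each listed 0 set to 5 reads, a choice made after the data were seen, 45 of 639 members were higher (7.04%) and 10 lower, against 8.54% and 3.88% of 5538 sites, and the medians were 0.04 and 0.05. Of the rises, 32 were called both ways, as were 5 of the falls. Among the 78 members listed in every library, 7 (8.97%) were higher and 5 (6.41%) lower, against 5.67% and 5.21% of 1765 such sites. On day 7 against day 3, 76 members (14.8%) were higher and 6 (1.17%) lower, against 10.4% and 1.66% of all sites. With zeros set to 5 reads 22 members (3.44%) were higher and 7 (1.10%) lower, against 4.98% and 1.72% of all sites. On day 3 against day 0 none of 512 members was called, with 35 at an unadjusted p under 0.05, against 431 of 4990 sites. With zeros set to 5 reads 2 of 639 members were higher, against 29 of 5538 sites. Library depth moves with these counts, since day 7 replicate 1 held the most reads, and its part in the result was not tested. Against day 0, 1 member was higher and 1 lower without day 7 replicate 1, 6 and 4 without day 7 replicate 2, 188 and 8 without day 0 replicate 1, and 57 and 3 without day 0 replicate 2. Against day 3, no member was higher without either day 7 replicate, 153 were higher without day 3 replicate 1 and 31 without day 3 replicate 2.

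Several genes were called higher on day 7 both with zeros as listed and with zeros set to 5 reads. Pkdcc, a secreted protein kinase, was listed at 0 in every library of days 0 and 3 and had 392 and 133 reads on day 7, at least 6.92-fold higher than on day 0 (limma-voom adjusted p = 0.00110). Jun, an immediate early transcription factor, was at least 3.51-fold higher, Ssbp3, a partner of LIM-domain factors, at least 4.03-fold, and Ier5, an immediate early gene, at least 3.88-fold. Junb, of the same family as Jun, had 840 and 168 reads on day 7 and was listed at 0 in every day 3 library, at least 10.8-fold higher on day 7 than on day 3 (limma-voom adjusted p = 0.00437). Slc2a1, the glucose transporter GLUT1, was listed in all samples, with 125 and 192 CPM on day 7, against 31.2 and 55.5 on day 0 (log2 difference 2.02 ± 0.39, limma-voom adjusted p = 0.0109). Raly, an RNA-binding protein gene whose site also carries the symbol a, had 389 and 288 on day 7, against 161 and 134 on day 0. All 3 overlapping Gnai2 motifs rose, by 1.33 to 1.47 on the log2 scale.

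The falls were few. Smg5 had 23.5 and 61.1 CPM on day 7, against 294 and 230 on day 0 (-2.88 ± 0.43, limma-voom adjusted p = 0.00413). Zbtb10, a zinc finger repressor, had 9.18 and 20.8, against 66.5 and 91.3 on day 0 (-2.69 ± 0.42). Sap30l, of the Sin3 deacetylase complex, had 17.2 and 25.8, against 57.0 and 61.4. Tle5, of the Groucho family, fell by 1.26 ± 0.35 (limma-voom adjusted p = 0.0427) but was not called with zeros set to 5 reads (adjusted p = 0.0899). Mybl2 fell by 4.05 ± 0.52 and by 3.08 ± 0.49 with zeros set to 5 reads. In these 5 genes the day 7 and day 0 values did not overlap, and all but Tle5 were called in both forms. Over 14 settings, the main fit included, the call was missed in 12 for Tle5 and in 5 for Sap30l. It was missed in 1 each for Zbtb10 and Mybl2, and in 0 for Smg5.

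**Figure D4:**
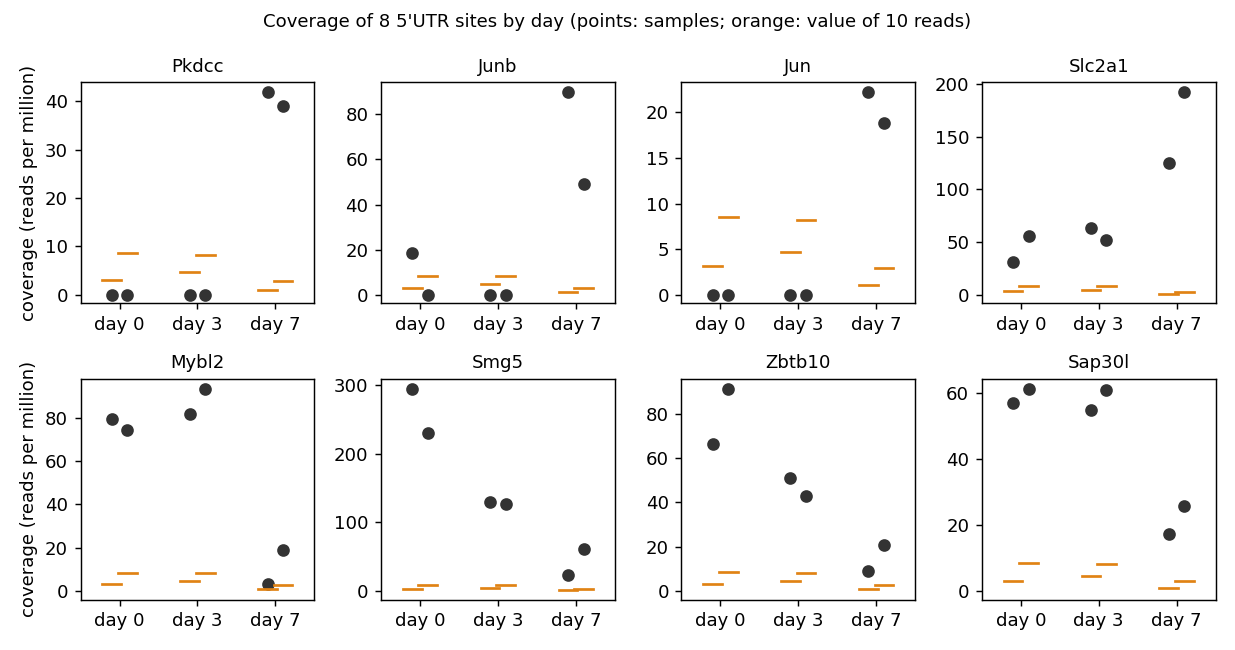
Coverage of 8 members in CPM (y axis, from 0) on days 0, 3 and 7 (x axis), with 1 point per sample. Orange marks give the value of 10 reads, the most that 2 listed zeros can stand for. Pkdcc and Jun are at 0 before day 7, and the lower row shows the falls, such as Smg5 with 23.5 and 61.1 on day 7 and 294 and 230 on day 0.

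By gene group, the sites called for coverage on day 7 against day 0 were nearly all higher, and few were called with zeros set to 5 reads. Apart from the described rG4 genes and the pluripotency and lineage genes, groups were formed by the first letters of gene symbols. The function of each gene in them was not checked. Over all sites the shares called higher were 16.1%, and 8.54% with zeros set to 5 reads. Of the described rG4 genes, 8 of 11 sites tested were higher, and 5 of 12 with zeros set to 5 reads, namely the 3 Gnai2 motifs, 1 of Fzd2 and 1 of Arpc2. These 12 sites lie in only 5 genes. Motifs of Gnai2, Fzd2 and Ccnd3 overlap within their gene, so the sites are not independent and their share is not a share of genes. Translation genes (Eif, Eef, Rpl and Rps) had 2 of 23 sites higher and 1 of 24 with zeros set, that of Eif5b, the subunit-joining factor. Membrane trafficking genes had 5 of 19 and 1 of 22, that of Arf3, a Golgi GTPase. Chromatin genes had 3 of 10 and 0 of 12, RNA-binding and splicing genes 1 of 17 and 0 of 23, ubiquitin and proteasome genes 1 of 21 and 0 of 25, and kinases and phosphatases 3 of 23 and 1 of 24. No site of these 7 lists was called lower on day 7 than on day 0 in either form. Of pluripotency and lineage genes 3 had a member. Mybl2 fell in both forms, and Sox11 and T, the brachyury gene, were higher only with zeros taken as 0 (with zeros set, -0.22 ± 0.54 and 0.38 ± 0.52). In the in vitro comparison ubiquitin and proteasome genes had 7 of 7 sites lower in cells, kinases and phosphatases 10 of 11, membrane trafficking genes 7 of 8, RNA-binding and splicing genes 6 of 7, described rG4 genes 4 of 5, translation genes 4 of 6 and chromatin genes 1 of 2, with the background at 74.8%. The median in vitro K+ share was 54.2% for translation genes and from 44.3% to 50.7% for the other lists with 10 or more sites, beside 49.0% over all members.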

How the data were processed

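Stops and coverage at rG4 sites were measured in 6 in-cell samples and 2 in vitro preparations. The submitters' processing notes name cutadapt, STAR, SAMtools and the builds GRCm38.p6 and mm10, without versions, and whether strand was used in counting is not known here. Per the file headers, the deposited values are other whole numbers per site, namely read counts of coverage and stops in K+ and Li+, without normalization. In the 8 values that carried no number, none of them at a 5′UTR site, 0 was used. Deposited motif coordinates were checked against RefSeq promoter windows of GRCm38.p6: all 37 minus-strand sites found there matched, and all 45 plus-strand sites were 1 base low, so 1 was added on the plus strand. Of 452 gene symbols of members, 447 were in the RefSeq gene table and 1 more was a synonym.

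Stop shares were tested as log2 odds (pseudocount 0.5, at least 20 reads in every library, beta-binomial weights) with limma 3.58.1 in R 4.3.3. K+ stop counts and coverage were tested with limma-voom on trimmed-mean (TMM) scaled libraries, at sites with 10 counts at the median library size in 2 samples and 15 in all. As a site's entry is split over 2 lines, the planned quasi-likelihood count test was replaced by limma-voom. All fits ran over all sites, with Benjamini-Hochberg adjustment over them, and calls have an adjusted p under 0.05. The steps were tested on simulated data. There, coverage of 1 to 5 reads was not set to 0, and no site had a K+ excess in vitro. The simulation therefore does not cover the reading of listed zeros or the in vitro excess. Regions were compared by exact sign-flip tests of medians per sample. Folds against days listed at 0 set each listed 0 to 5 reads per cation and cover counting error only.

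The members and gene lists were chosen with earlier results of these data known. Named sites are, per test, up to 12 called members in each direction by adjusted p with 1 site per gene, the 4 with smallest p where fewer than 4 were called, the 8 most read, the 8 of highest in vitro share, and those of described rG4 genes. Sites with K+ above Li+ on day 7 and pluripotency and lineage genes were named after their values were seen. Alternatives were other coverage minimums, pseudocounts, weights, scalings and filters, left-out replicates and blocks. Setting listed zeros to 5 reads, keeping only sites listed in every library and fitting each day alone were chosen after seeing the data.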

Additional observations from a re-analysis of the deposited data

Results flagged for a closer look

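The K+ over Li+ odds differed between day 7 cells and the in vitro tables at 145 members, by a test of that difference itself (limma on weighted log2 odds). These are 75.1% of the members tested, against 74.8% of all 2648 sites, and every listed site has K+ above Li+ in vitro, which in part fixes the direction. The named members among them had log2 differences, day 7 cells minus in vitro, of -8.23 for Huwe1, -6.08 for Mdk, -5.70 for Kansl2, -5.66 for Canx, -5.60 for Gadd45a, -5.57 for Anp32e, -4.88 for Arhgdia, -4.61 for Kpnb1, -4.24 for Paip2, -3.86 for Tmpo, -3.70 for the site of Gm49909 and Myl12a, and -3.56 for Phf23. These 12 sites kept their direction and their call in all 104 refits under other settings in which they could be tested. They were picked for their small adjusted p, so this stability is in part built in. Named sites called for coverage kept direction but lost the call in 27 of 189 refits on day 7 against day 0, and in 40 of 190 against day 3. For K+ stops this held in 7 of 16 and 2 of 6 refits.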

How the results depend on the processing

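Against in vitro, the 145 members called became 219 with a minimum of 10 reads, 52 with 50 reads and 77 to 122 with a replicate left out, lowest without day 7 replicate 1. The minimum itself changes how many sites are tested. The 2 members whose K+ stop counts differed between day 7 and day 0 became 9 without a filter on low counts, 1 with only the 2 days compared, 4 with total counts alone, all of them higher, and 0 to 2 with a replicate left out. Day 7 against day 3 gave 1 member, which became 8 without the filter, 0 with only the 2 days compared and 0 to 0 with a replicate left out. The 121 members whose coverage differed between day 7 and day 0 became 55 with listed zeros set to 5 reads, 12 among sites listed in every library, 67 with only the 2 days compared and 2 to 196 with a replicate left out. The 82 between day 7 and day 3 became 29, 8 and 0 to 154 under the first, the second and the last of these settings, and the 0 between day 3 and day 0 became 2 with zeros set to 5 reads. With K+ and Li+ swapped in day 0 replicate 2, 5′UTR minus 3′UTR odds were -0.37 and the Li+ share difference was 0.79 percentage points, both with an exact sign-flip p of 0.0312. For the odds, the swap turns the only sample that lay on the other side, so this smallest p follows by construction. For the Li+ share, the swap puts in that sample's K+ medians, 2.50% over members and 1.92% over 3′UTR sites. Only the sample on the other side was swapped, so neither p supports anything. The Li+ difference was 2.19 as a mean over sites. In vitro, the odds difference of -0.03 became -0.14 with 50 reads and -0.29 among 2-quartet sites. The cause of these shifts was not tested. Replicate numbers did not pair the samples (correlations of same-numbered samples from -0.173 to 0.238), and with the number as a replicate block 162 members were called against in vitro, 2 for K+ stops and 86 for coverage on day 7 against day 0, and 73 for coverage on day 7 against day 3. With zeros set to 5 reads the coverage difference of Sox11 between day 7 and day 0, called at 3.89, became -0.22 without a call, as that between day 7 and day 3, called at 3.64, became -0.46, and the uncalled one of the canonical Arpc2 motif, 3.00, became -0.13. Depth left 20 members for the odds in all 12 in-cell libraries.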
